A study of Caenorhabditis elegans with 12 samples.

Results

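The adenine nucleotide translocases (ANT) of Caenorhabditis elegans are encoded by 4 genes, ant-1.1, ant-1.2, ant-1.3 and ant-1.4, taken here by their WormBase symbols from the 46934 genes of the count table. All 4 have a row there. The translocase sits in the inner mitochondrial membrane and exchanges ADP from the cytosol for ATP made in the matrix, so that it supplies ATP synthase with its substrate and the rest of the cell with the product. It works beside the mitochondrial phosphate carrier, and both belong to the large family of mitochondrial carriers. In C. elegans the protein of ant-1.1, also called WAN-1, has in addition been reported to bind the cell death proteins CED-9 and CED-4.

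RNA was sequenced from whole larvae held for 48 h in arrest at the first larval stage (L1), which C. elegans enters when it hatches without food. Eggs were freed by hypochlorite treatment and left in M9 buffer, so all 3 strains were starved for the same time. N2 is the wild type, HBR2340 carries the allele syb1445 of the neuropeptide gene flp-11, and PHX2193 carries the allele syb2193 of that gene. The labels do not say what the alleles change. Each strain had 4 biological replicates, A to D, and the strains are compared in pairs for their RNA levels.

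Library totals ranged from 23068345 to 34832403 counts. In N2 the labelled gene flp-11 had 205.6 to 367.4 CPM (counts per 1000000 of the library total after TMM scaling), in HBR2340 108.3 to 142.2, and in PHX2193 19.3 to 23.2. Markers of intestine, body wall muscle, pharynx, epidermis, neurons, the excretory cell and germ cells were present in every strain, while sperm markers summed to at most 4.77 CPM in any library and ssp-19 was at 0 throughout. Oocyte and embryo markers summed to 8.03 to 102.8 CPM in the N2 libraries, 10.64 to 19.25 in HBR2340 and 9.34 to 64.07 in PHX2193. Whether adult or embryo RNA was carried over was not tested. The library N2 B stood apart from the other N2 libraries in many genes, and its effect is given beside the results below. The ANT genes were chosen by symbol as a family, with the fitted strain differences of these libraries known, among them the high ant-1.2 level in HBR2340. Their levels across strains are therefore a description, with a fitted log2 fold change and its standard error (SE) but no p.

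The 4 gene models differ in structure (WBcel235 coordinates, Ensembl annotation). The gene ant-1.1 (WBGene00006439) lies on chromosome III from 13463163 to 13464652, plus strand, with 4 exons, 1284 bp of exon and 300 codons. The gene ant-1.2 (WBGene00007057) lies on chromosome I from 6730057 to 6730959, minus strand, and consists of 1 exon of 903 bp with 300 codons, so its model has no intron and no annotated untranslated part. The genes ant-1.3 (WBGene00010485; chromosome IV, 9708168 to 9709305, minus strand) and ant-1.4 (WBGene00020140; chromosome IV, 8459178 to 8460308, minus strand) have 3 exons and 313 codons each. All 4 are protein coding with 1 transcript, and no annotated gene overlaps any of them.

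Nearly all ANT RNA in these larvae came from ant-1.1. Per kilobase of exon, ant-1.1 had in N2 5539 ± 2460 CPM (mean ± SD, n = 4), 5592 ± 487 in HBR2340 and 4151 ± 1019 in PHX2193. For ant-1.2 the per-kilobase level was 7.06 ± 2.43 CPM in HBR2340, against 0.200 ± 0.135 in N2 and 0.173 ± 0.123 in PHX2193. That of ant-1.3 was 0.143 ± 0.127, 0.0832 ± 0.0520 and 0.110 ± 0.0464 CPM in the same order of strains, and that of ant-1.4 was 0.103 ± 0.0251, 0.158 ± 0.0697 and 0.0351 ± 0.0417 CPM. In N2 and PHX2193 the order was ant-1.1, ant-1.2, ant-1.3 and ant-1.4. In N2 the 3 lower genes lay within 1 SD of one another, and in PHX2193 ant-1.2 and ant-1.3 did. In HBR2340 ant-1.2 stood clearly second. The share of ant-1.1 in the family's summed per-kilobase level was at least 99.979% in every N2 and PHX2193 library and 99.8% to 99.9% in HBR2340. In whole animals, fewer cells of a type and less RNA per cell cannot be told apart.

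**Figure D1:**
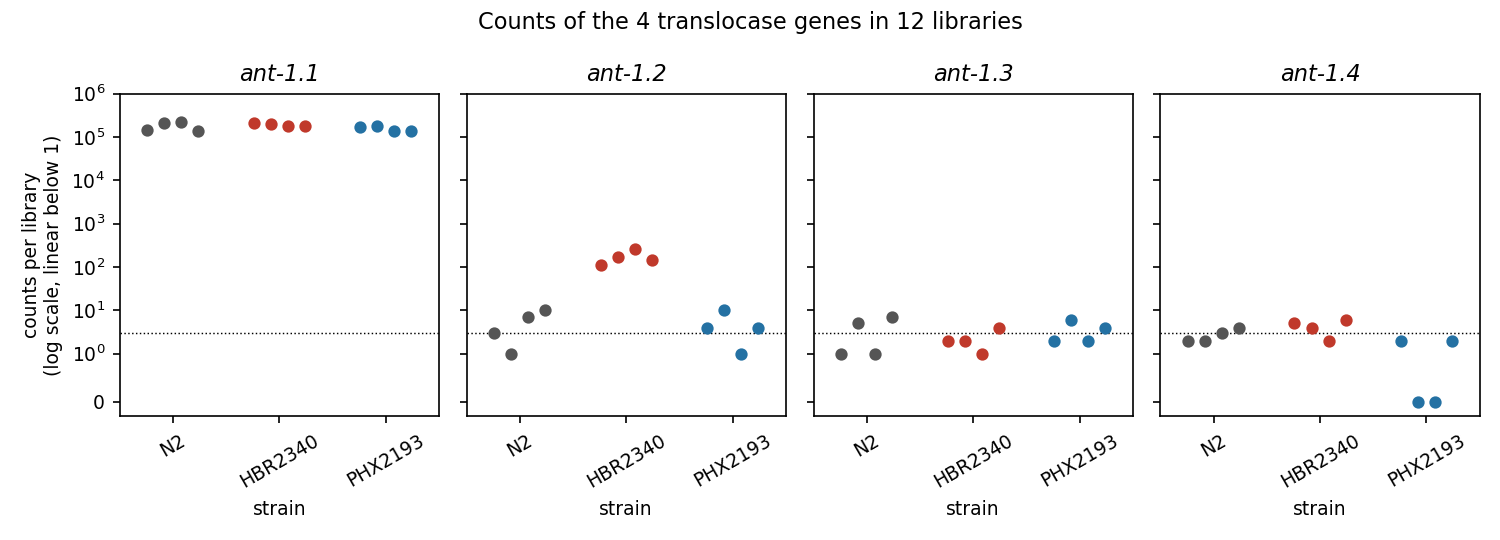
Counts per library (logarithmic axis, linear below 1) for the 4 ANT genes in 4 libraries each of N2, HBR2340 and PHX2193; the points of a strain run from replicate A to D and the dotted line marks 3 counts. The ant-1.1 counts lie above 100000 in every library, ant-1.2 has 110 to 260 counts in HBR2340 and at most 10 elsewhere, and ant-1.3 and ant-1.4 stay at 7 counts or fewer.

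The gene ant-1.1 was among the most abundant protein coding transcripts of the arrested larva. Ranked per kilobase among 19984 protein coding genes, it held places 2 to 7 in the N2 libraries, 2 to 5 in HBR2340 and 3 to 11 in PHX2193. Its mean N2 level per kilobase was 3.04 times that of F01G4.6 (1823 CPM per kilobase), the mitochondrial phosphate carrier gene and the highest of the other carriers listed. The next carrier gene, mfn-1, encoding mitoferrin, was 56.8 times lower than ant-1.1. The ATP synthase gene Y82E9BR.3, encoding subunit c of the proton-driven ring, reached 3998 CPM per kilobase in N2.

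In N2 A to D, ant-1.1 had 6177, 11737, 5925 and 4611 CPM. It was 7435, 7717, 6280 and 7286 CPM in HBR2340 A to D. It was 7126, 5246, 4941 and 4005 CPM in PHX2193 A to D. The groups overlapped in all 3 comparisons, N2 B was the highest library of all and PHX2193 D the lowest. The log2 fold change was 0.01 ± 0.26 (SE) in HBR2340 against N2, −0.42 ± 0.26 in PHX2193 against N2 and −0.43 ± 0.26 in PHX2193 against HBR2340. The N2 values turned on N2 B, which had 2.11 times the mean of the other N2 libraries (5571 ± 841 CPM, n = 3). Without it the log2 fold changes against N2 were 0.35 ± 0.18 (SE) in HBR2340 and −0.07 ± 0.18 in PHX2193. Without N2 D the value in HBR2340 was −0.15. The coefficient of variation was 44.4% in N2, 24.6% in PHX2193 and 8.72% in HBR2340.

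Across the 12 libraries the gene whose log2 CPM was most like that of ant-1.1 was atp-2 (chromosome III, 5228417 to 5230536), which encodes the catalytic beta subunit of ATP synthase. Pearson's r was 0.976 and Spearman's rho 0.965 (n = 12 libraries), and r was 0.957 without N2 B and PHX2193 D, the libraries farthest from the median. The next were nduf-11 (r = 0.975), a gene of respiratory complex I, dld-1 (0.974), encoding dihydrolipoyl dehydrogenase of the pyruvate dehydrogenase complex, and rps-2 (0.974), a ribosomal protein gene. These were picked as the highest of the 11847 other genes with a mean log2 CPM of at least 1, for which the median r was 0.0151. The top place depended on the libraries. Without N2 B it went to rskn-2 (0.988) and asb-2, an ATP synthase gene, came next (0.984), with atp-2 at place 4 (0.972). The libraries share strain, RNA preparation and scaling, so r is a description. With strain means taken out, r with atp-2 was 0.974 and the ATP synthase gene Y82E9BR.3 was highest (0.982).

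**Figure D2:**
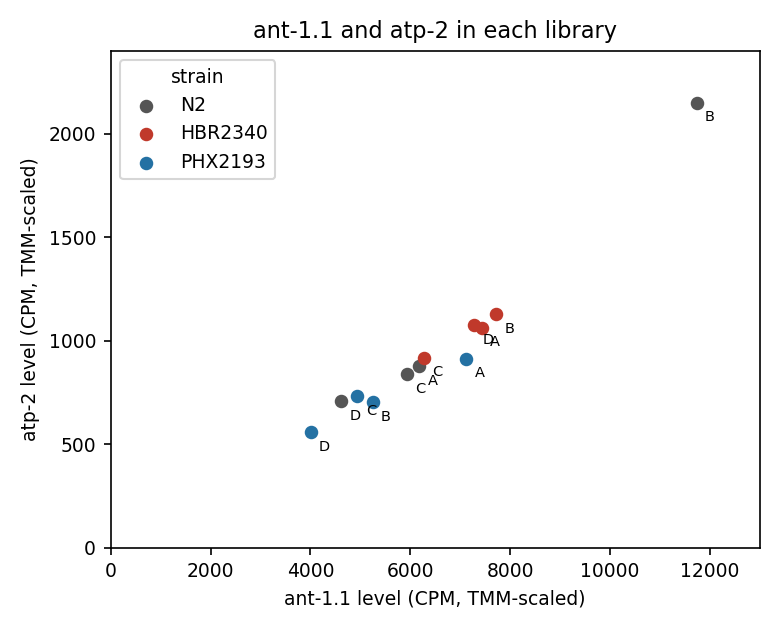
Level of atp-2 against level of ant-1.1 (both CPM, TMM-scaled, linear axes from 0) in each of the 12 libraries, coloured by strain and lettered by replicate. The points lie along 1 rising line in every strain, from 4005 CPM of ant-1.1 in PHX2193 D to 11737 in N2 B (r = 0.976 on the log2 scale).

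Among the ATP synthase genes, 9 of 17 had r over 0.9 with ant-1.1, against 2.5% of the 11847 genes. Besides atp-2 these included asb-2 (0.973), Y82E9BR.3 (0.972) and F58F12.1 (0.968), and the list's median was 0.92. The lowest was asg-1 (−0.61), which encodes subunit g, whereas asg-2, the other gene for subunit g, had 0.95. The subunit b genes differed in the same way, with 0.33 for asb-1 and 0.97 for asb-2. In N2, asb-1 had 16.1 CPM per kilobase and asb-2 523.4, and asg-1 had 68.1 and asg-2 226.3, so in both pairs the gene that followed ant-1.1 was the more abundant. Of the nuclear respiratory chain genes, 10 of 33 had r over 0.9 (median 0.84). Median r was 0.49 for the other carriers (0.89 for F01G4.6), 0.39 for porin and protein import, and −0.26 for cell death genes. Without N2 B these medians were 0.43, 0.21 and 0.10, and that of the respiratory chain was 0.69. Nucleotide and phosphagen kinases had a median of 0.63 (0.16 without N2 B), with 2 of 9 genes over 0.9. The AMP-activated kinase list had 0.29 (0.53 without N2 B), with 1 of 10 over 0.9. With strain means taken out these 2 medians were 0.65 and 0.76. For ant-1.2 the ATP synthase genes had a median r of 0.13 and the highest was 0.48 (atp-3). Without N2 B the ATP synthase median was 0.90 for ant-1.1 and 0.68 for ant-1.2, and with strain means taken out it was 0.94 and −0.49.

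The second translocase gene, ant-1.2, was close to the limit of detection in N2 and PHX2193 and well above it in HBR2340. It had 3, 1, 7 and 10 counts in N2 A to D, 110, 170, 260 and 145 counts in HBR2340, and 4, 10, 1 and 4 counts in PHX2193. These counts correspond to 0.0568 to 0.343 CPM in N2, 3.83 to 9.15 CPM in HBR2340 and 0.0369 to 0.301 CPM in PHX2193. All 4 HBR2340 libraries lay above all 4 N2 libraries, an order that 7.52% of the 15908 tested genes show, and above all 4 PHX2193 libraries, which 17.9% show. The lowest HBR2340 library had 11.16 times the CPM of the highest N2 library. N2 and PHX2193 overlapped. The gene was among those tested through its HBR2340 counts alone, so these shares are a description.

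The log2 fold change of ant-1.2 was 5.03 ± 0.51 (SE) in HBR2340 against N2 and −5.28 ± 0.52 in PHX2193 against HBR2340. Summed over the 4 libraries of a strain there were 21 counts in N2 (95% Poisson interval 12.999 to 32.1), 685 in HBR2340 (634.7 to 738.3) and 19 in PHX2193 (11.4 to 29.7). Scaled to library size, the summed counts of HBR2340 were 32.3 times those of N2 (95% binomial interval 20.9 to 52.5) and 39.5 times those of PHX2193 (25.1 to 66.1). Those of PHX2193 were 0.816 times those of N2 (0.415 to 1.595). These intervals cover counting error only. They are a description and no test, since the gene was chosen with these values known. The level made by 3 counts, called the floor here, was 0.0823 to 0.170 CPM in the N2 libraries, so the size of the fold is imprecise, and the lowest N2 library, N2 B, lay under it at 0.0568 CPM. With any 1 library left out, the HBR2340 value stayed between 4.78 and 5.49.

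The ant-1.2 difference did not follow ant-1.1. For every 100000 counts of ant-1.1 in the same library there were 51.55 to 146 counts of ant-1.2 in HBR2340, 0.484 to 7.45 in N2 and 0.747 to 5.74 in PHX2193. How the authors counted reads that match several family members is not stated in the labels. Over the same denominator ant-1.3 and ant-1.4 had 0 to 5.21 counts in every library. Within HBR2340 the library with the most ant-1.2, C, had the least ant-1.1 (6280 CPM). In rank per kilobase ant-1.2 held places 6945 to 9557 among protein coding genes in HBR2340, 14814 to 16191 in N2 and 14708 to 17390 in PHX2193, so even in HBR2340 it was a gene of low to middle abundance.

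Body wall muscle markers moved in the same direction in HBR2340 against N2 and in PHX2193 against HBR2340. All 5 were called higher in HBR2340 than in N2, where 7.37% of all tested genes were called, and all 5 lower in PHX2193 than in HBR2340 (19.5% of all genes), with summed levels of 14290 to 15600 CPM in HBR2340, 5755 to 10780 in N2 and 2872 to 5678 in PHX2193. Both counts were 5 of 5 without N2 B as well. In PHX2193 against N2 none of the 5 was called, with a median log2 fold change of −0.62. The ant-1.2 groups overlapped there (−0.26 ± 0.58). Without N2 B, 1 muscle gene was called lower in that comparison (1.4% of all genes) and the median was −0.51. Of the other 8 marker lists, intestine had 1 of 6 genes called lower in HBR2340 than in N2 and the rest had none called (adjusted p under 0.05, quasi-likelihood test of edgeR, Benjamini-Hochberg adjusted). In PHX2193 against HBR2340, 1 intestine gene was higher, 1 neuron gene lower, and 1 excretory cell gene higher and 1 lower. Without N2 B, HBR2340 against N2 had 2 intestine genes lower, 2 pharynx genes higher, 1 neuron gene higher and 1 lower, and 1 excretory cell gene lower. PHX2193 against HBR2340 then had 2 intestine genes higher, 2 pharynx genes lower, and 1 neuron gene higher and 3 lower. Of the excretory cell genes 2 were higher and 1 lower. Without N2 B, 17.7% and 32.9% of all genes were called in these 2 comparisons. The part of muscle RNA in the ant-1.2 level was not tested.

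On chromosome I, ant-1.2 lies between 2 genes for fatty acid binding proteins on the same strand. The gene lbp-6 (6728296 to 6729376) lies 680 bp away at lower coordinates. The gene lbp-5 (6731267 to 6732276) lies 307 bp away at higher coordinates. Neither shared the ant-1.2 pattern against N2. For lbp-6, N2 A to D had 12.5, 25.6, 8.555 and 16.04 CPM, against 18.01, 18.1, 13.8 and 19.04 CPM in HBR2340, a log2 fold change of 0.14 ± 0.28 (adjusted p = 0.827, edgeR). The lbp-5 level was 1.59 ± 0.377 CPM in N2 and 1.85 ± 0.396 in HBR2340 (mean ± SD, n = 4), a log2 fold change of 0.22 ± 0.30 (adjusted p = 0.741, edgeR). In PHX2193 lbp-6 had 7.70, 10.6, 6.46 and 11.3 CPM and was lower than in HBR2340 (−0.93 ± 0.29, adjusted p = 0.0369, edgeR), a call lost when PHX2193 A, B or C or a single HBR2340 library was left out (adjusted p up to 0.126). Of 15 tested protein coding genes within 25 kb of ant-1.2, a window chosen after the values were seen, T23B3.2 was the one called in HBR2340 against N2 (0.50 ± 0.12), where 7.37% of all tested genes were called. In PHX2193 against HBR2340, where 19.5% were called, unc-37 was higher and 4 of the 15 were lower (lbp-6, T23B3.2, fnci-1 and T23B3.8). The T23B3.2 call against N2 was lost when N2 A, N2 C or a single HBR2340 library was left out (adjusted p up to 0.0761).

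**Figure D3:**
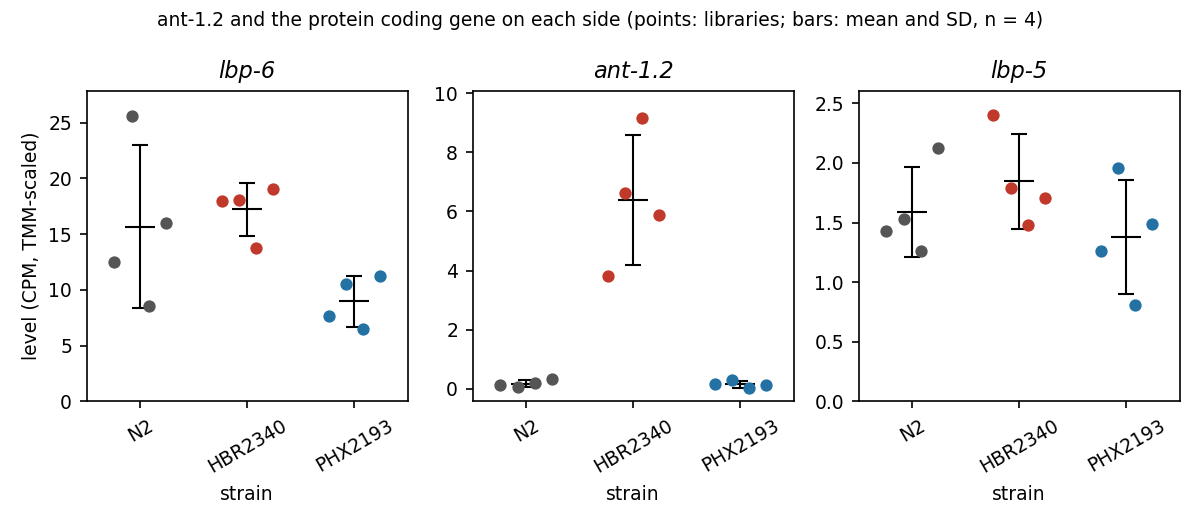
Levels (CPM, TMM-scaled, linear axes that differ between panels) of ant-1.2 and of lbp-6 and lbp-5, the protein coding genes on either side; points are libraries, bars the mean and SD of 4. For ant-1.2 the HBR2340 points (3.83 to 9.15 CPM) stand far above the others, while the N2 and HBR2340 points of lbp-6 and of lbp-5 overlap.

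The genes most like ant-1.2 over the 12 libraries were cyp-33C2 (r = 0.990; chromosome V, 2183488 to 2186599), F55B12.10 (0.989; V, 13839733 to 13840491), cyp-33C1 (0.986; V, 2179514 to 2181938) and msa-1 (0.982; IV, 9088594 to 9092196). The cyp-33C genes encode cytochrome P450 enzymes. The cyp-33C2 level was 8.54, 12.4, 18.6 and 11.9 CPM in HBR2340 A to D, against 1.19 to 2.06 CPM in N2 and 1.11 to 1.94 in PHX2193. For F55B12.10 the values were 7.56, 10.96, 13.7 and 10.4 CPM in HBR2340 A to D. Both genes were high in HBR2340 alone and, like ant-1.2, highest in replicate C and lowest in replicate A. In HBR2340 all 4 of these genes ranked the libraries as ant-1.2 did, from A over D and B to C; in N2 2 of the 4 did and in PHX2193 1 did. Since they were picked for their likeness, this order is a description. With strain means taken out, r was 0.81 to 0.89. Without N2 B, F55B12.10 was the highest (0.998) and cyp-33C2, cyp-33C1 and msa-1 had 0.989, 0.986 and 0.981. Of the 11847 genes, 1.65% had r over 0.9 with ant-1.2.

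**Figure D4:**
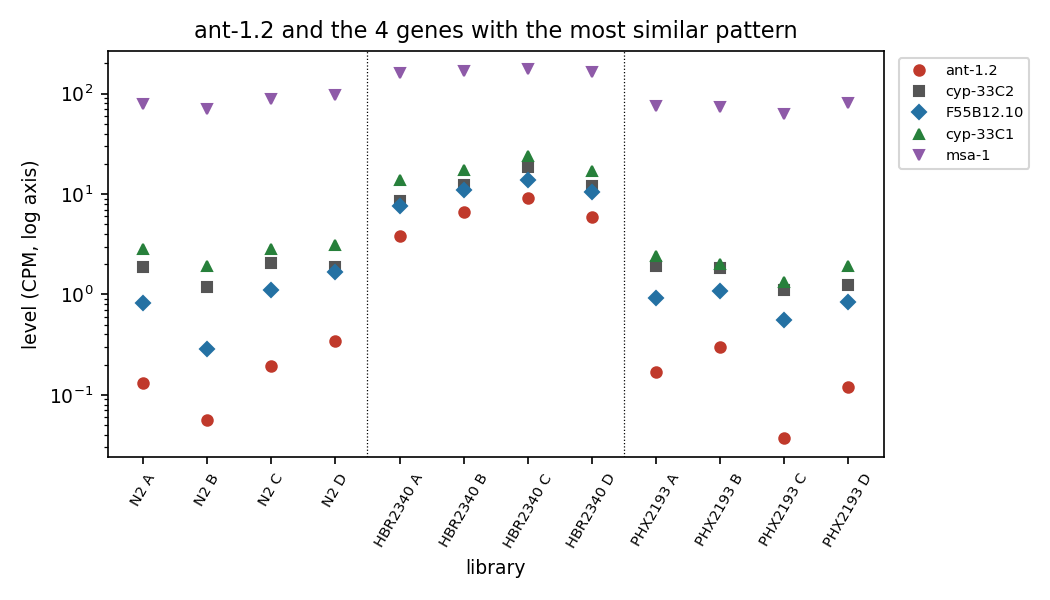
Level (CPM, logarithmic axis) of ant-1.2 and of the 4 genes with the highest Pearson r to it in each of 12 libraries, ordered by strain. All 5 genes are highest in the 4 HBR2340 libraries, and within HBR2340 all 5 are lowest in A and highest in C; msa-1 changes least, from a mean of 83.7 CPM in N2 to 167 in HBR2340.

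The remaining family members were barely detected in any strain. The gene ant-1.3 had 1, 5, 1 and 7 counts in N2 A to D, 2, 2, 1 and 4 in HBR2340 and 2, 6, 2 and 4 in PHX2193. The gene ant-1.4 had 2, 2, 3 and 4 counts in N2, 5, 4, 2 and 6 in HBR2340 and 2, 0, 0 and 2 in PHX2193. All groups overlapped, and more than 3 counts were seen in 5 of the 12 libraries for ant-1.3 and in 4 for ant-1.4. Neither had enough counts to be tested, so no fold is given. For ant-1.4 the 2 PHX2193 libraries without a count, B and C, allow up to 0.0903 and 0.111 CPM (3 counts). The sums were 14, 9 and 14 counts of ant-1.3 and 11, 17 and 4 counts of ant-1.4 in N2, HBR2340 and PHX2193. A difference between strains in these genes was not tested.

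Genes near them were expressed at levels of their own. The gene dph-3, 403 bp from ant-1.3, had 360 ± 31.8 CPM in N2 (mean ± SD, n = 4), and nhr-38, a nuclear hormone receptor gene 881 bp away on the other side, had 0.649 ± 0.627 CPM. The syntaxin gene syx-4, 244 bp from ant-1.4, had 1.85 ± 1.104 CPM in N2. The receptor gene str-176, 690 bp from ant-1.4, had 14.8 ± 9.95 CPM. None of these was called between strains (lowest adjusted p 0.108, edgeR). Without N2 B, 3 of them were called in PHX2193 against HBR2340, where 32.9% of all genes were then called. Adjusted p (edgeR) was 0.0456 for nhr-38, 0.043 for dph-3 and 0.00408 for str-176. For nhr-38, HBR2340 D had 4.91 CPM and the other HBR2340 libraries 0.702 to 1.09. Beside ant-1.1, the kinase gene cdk-5 lies 34 bp away on the opposite strand and had 10.999 ± 1.12 CPM in N2.

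Genes that work with the translocase were tested in 7 lists of 112 tested genes, with lists chosen when earlier results were known. In HBR2340 against N2, 6 of 112 (5.36%) were called, 3 higher and 3 lower, against 7.37% of all genes tested, with a median log2 fold change of −0.10 (−0.04 over all genes). In PHX2193 against N2 none of the 112 was called by edgeR (26 had an unadjusted p under 0.05, 2 were called by DESeq2 and 0 by limma-voom), against 0.365% of all genes by edgeR, 2.94% by DESeq2 and 0.327% by limma-voom, with a median of −0.23 (−0.01). In PHX2193 against HBR2340, 18 (16.1%) were called, 6 higher and 12 lower, against 19.5% of all genes, with a median of −0.17 (0.02). By DESeq2 8 and 22 of these genes were called in the first and last comparison (11.9% and 23.8% of all genes), and by limma-voom 3 and 20 (6.75% and 20.2%). Without N2 B the 3 medians were 0.11, −0.05 and −0.16. The edgeR counts depended on single libraries. Against N2 in HBR2340 there were 20 calls without N2 B (14 higher, 6 lower; 17.7% of all genes were then called), 3 without N2 A or PHX2193 B, and 2 without any 1 HBR2340 library. In PHX2193 against N2, aak-1 alone was called without N2 B (1.4% of all genes). Between PHX2193 and HBR2340 there were 45 without N2 B (11 higher, 34 lower; 32.9% of all genes), 11 without HBR2340 B, 10 without HBR2340 C, HBR2340 D or PHX2193 D, and 9 without PHX2193 B.

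ATP synthase, which makes the ATP that the translocase exports, had 0 of 17 genes called in HBR2340 against N2 by edgeR, DESeq2 or limma-voom, and 0 at an unadjusted p under 0.05 in edgeR. By edgeR 7.37% of all genes were called in HBR2340 against N2, 0.365% in PHX2193 against N2 and 19.5% in PHX2193 against HBR2340. Without N2 B these shares were 17.7%, 1.4% and 32.9%. In HBR2340 against N2 without N2 B, 2 ATP synthase genes were called higher (atp-3 and asg-2). Then 7 had an unadjusted p under 0.05, and the median log2 fold change went from −0.13 to 0.20. In PHX2193 against N2 the median was −0.54, with 0 called by any of these tools and 9 at an unadjusted p under 0.05 in edgeR. Without N2 B it was −0.16, with 0 called and 4 at an unadjusted p under 0.05. In PHX2193 against HBR2340 1 gene was lower, atp-3 (chromosome I, 5428533 to 5429908), which encodes the stalk subunit OSCP (−0.72 ± 0.20, adjusted p = 0.0226, edgeR), and 10 were lower without N2 B. The atp-3 call ended without HBR2340 B or D or PHX2193 B, C or D (adjusted p up to 0.0716). The nuclear respiratory chain had 0 of 33 called against N2 in either strain by edgeR, DESeq2 or limma-voom (0 in HBR2340 and 7 in PHX2193 at an unadjusted p under 0.05 in edgeR). Without N2 B, 4 were called in HBR2340 (nuo-1, nuo-3 and nuo-5 higher, nuo-6 lower) and 0 in PHX2193, with 10 and 3 at an unadjusted p under 0.05. Between PHX2193 and HBR2340, nuo-1 (−0.60) and nduv-2 (−0.34), both of complex I, were lower, and 9 were lower and 1 higher without N2 B. The nuo-1 call ended without any 1 library other than N2 B, N2 D or PHX2193 A (up to 0.134), and that of nduv-2 without any 1 HBR2340 library or PHX2193 B or C (up to 0.0960).

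The AMP-activated kinase is a sensor of AMP and ADP in the cytosol. Of the 10 genes of its list, which also holds par-4, not a subunit gene, 3 were called in HBR2340 against N2. Of all tested genes, 7.37% were called there. In PHX2193 against HBR2340 3 were called as well (19.5% of all genes). Without N2 B these counts were 4 and 5 (17.7% and 32.9% of all genes). The gamma subunit gene aakg-4 (chromosome X, 2314894 to 2319338) rose from 93.6 ± 14.7 to 192 ± 23.6 CPM (log2 fold change 1.03 ± 0.14, adjusted p = 0.000966, edgeR). The gamma subunit gene aakg-5 (chromosome II, 9971035 to 9975125) rose from 31.3 ± 6.44 to 62.2 ± 2.29 CPM (0.99 ± 0.15, adjusted p = 0.00199, edgeR). Both calls held with any 1 library left out, and both genes were lower in PHX2193 than in HBR2340 (−1.37 ± 0.14 and −1.197 ± 0.15). The catalytic subunit gene aak-1 fell by 1.001 on the log2 scale (adjusted p = 0.0390), by 0.55 without N2 B, and the call ended without any 1 HBR2340 or PHX2193 library (up to 0.0982). The aakg-4 and aakg-5 levels of HBR2340 lay above those of both other strains, as its ant-1.2 levels did. For aak-1, N2 lay between the strains without N2 B (134.9 to 144.7 CPM), and PHX2193 was then 0.38 higher than N2 (adjusted p = 0.0464, edgeR).

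Of the 21 other carriers, slc-25A18.1, a glutamate carrier family gene, was higher in HBR2340 than in N2 (0.44 ± 0.11, adjusted p = 0.0288, edgeR) and misc-1, encoding the oxoglutarate carrier, was lower (−0.55 ± 0.14, adjusted p = 0.0347). The first call ended without N2 A or C, PHX2193 C or any HBR2340 library (up to 0.115), and the second without N2 A or D, PHX2193 B or any HBR2340 library (up to 0.105). Without N2 B, 6 carriers were called in HBR2340 against N2, 5 higher and 1 lower. Of all genes, 17.7% were then called, and 7.37% with all libraries. Between PHX2193 and HBR2340, 3 carriers were higher, including mfn-1 (0.44 ± 0.10), and 4 lower, including slc-25A18.1 (−0.64 ± 0.11), and without N2 B 5 were higher and 7 lower. Of all genes, 19.5% were called in that comparison and 32.9% without N2 B. Of 9 cell death and cyclophilin genes the caspase gene ced-3 was lower in HBR2340 than in N2 (−0.85 ± 0.23, adjusted p = 0.0405; ended without N2 A or D, any 1 HBR2340 library or PHX2193 B, up to 0.124). It was higher in PHX2193 than in HBR2340 (1.41 ± 0.23, adjusted p = 0.00100), where wah-1 and cyn-1 were lower. Without HBR2340 D the wah-1 call ended (adjusted p = 0.0563, edgeR). Porin and protein import had 0 of 13 called by edgeR in all 3 comparisons (2, 1 and 3 at an unadjusted p under 0.05; DESeq2 called 1 gene, between PHX2193 and HBR2340, and limma-voom 0). Nucleotide and phosphagen kinases had 0 of 9 called against N2 in HBR2340 (4 at an unadjusted p under 0.05; DESeq2 2, limma-voom 0), and 2 of 9 without N2 B, C29F7.3 and F46H5.3. Relative to HBR2340, PHX2193 had C29F7.3 higher (0.64 ± 0.13) and argk-1, an arginine kinase gene, lower (−1.17 ± 0.34) in this list. The argk-1 level was low, 0.628 ± 0.293 CPM in PHX2193 and 1.43 ± 0.359 in HBR2340. The abundant F46H5.3 had 810 ± 186 and 1637 ± 50.1 CPM (−1.02 ± 0.34, adjusted p = 0.0523, edgeR), and DESeq2 and limma-voom called it lower. The argk-1 groups overlapped, and its call ended without HBR2340 B, C or D or PHX2193 A, B or C (adjusted p up to 0.0941, edgeR).

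**Figure D5:**
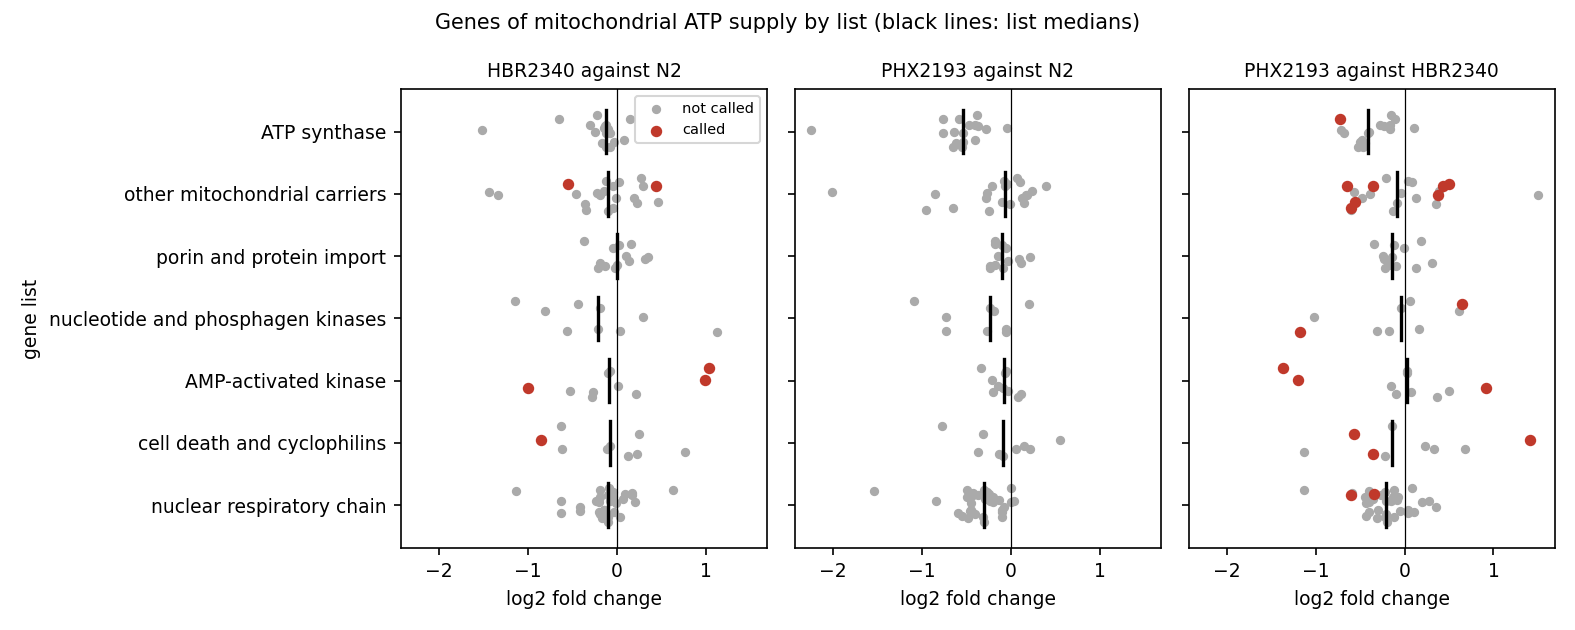
Log2 fold change of each tested gene of the 7 lists in the 3 comparisons; red points were called at an adjusted p under 0.05, grey points were not, and black lines are list medians. HBR2340 against N2 has 6 red points, PHX2193 against N2 has 0 and PHX2193 against HBR2340 has 18; the ATP synthase median lies at −0.13, −0.54 and −0.41 (0.20, −0.16 and −0.40 without N2 B).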

How the data were processed

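The deposited values are raw counts per WormBase gene, whole numbers made by the authors from whole-larva RNA (Trizol, Illumina libraries), per the labels. Bowtie 0.12.2 and the builds WBcel235 and mm8 (mouse) are named, per the submitters' processing notes. No source used here states the counting program, annotation, strandedness or handling of reads with several matches. Symbols and gene models came from Ensembl release 115 (WBcel235), which holds 46924 of 46934 identifiers.

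Testing used edgeR 4.0.16 in R 4.3.3: filterByExpr (minimum count 10, minimum total 15; 15908 genes kept), TMM factors, and a robust quasi-likelihood fit of all 12 libraries with 1 term per strain. Tests are two-sided, p-values were adjusted by Benjamini-Hochberg over the whole table, and called means an adjusted p under 0.05. They measure the spread between the labelled biological replicates. CPM uses the TMM-scaled library size, and log2 CPM a prior count of 2. Of the 4 members, ant-1.1 and ant-1.2 passed the filter, ant-1.2 through its HBR2340 counts alone. Depth was 23068345 to 34832403 counts per library. No library copies another: the closest pair within a strain had a chi-square over degrees of freedom of 15.7. Replicate letters did not in general pair the libraries, though N2 D and PHX2193 D deviated together (r = 0.66).

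The members and lists were chosen with earlier results of these data known. Named are the members, the called genes of each list with the smallest adjusted p (up to 3 in each comparison, or 1 with the smallest p where none was called), the 4 genes most like ant-1.1 and ant-1.2 by Pearson's r, and the neighbours. Of the list symbols, 6 did not match, all of protein import, leaving 117 pathway genes. Alternatives were other scalings and filters, DESeq2 1.42.0, limma-voom (limma 3.58.1), the 8 libraries compared, a replicate block, and libraries left out. The fit was tested on simulated counts with the same dispersion for every gene and no library that stood apart. That run therefore cannot speak to calls that depend on N2 B. ANT sequences are not printed here.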

Additional observations from a re-analysis of the deposited data

Results flagged for a closer look

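No ANT gene had a library far from the 3 others of its strain by Dixon's criterion. Among 45 genes named or neighbouring, 9 of 135 groups of 4 libraries had such a library, and chance flags about 1 in 20 groups. In 6 of the 9 the library was N2 B, in which ant-1.1 was also highest (11737 CPM). N2 B had 2149 CPM of atp-2 (708.7 to 877.3 in the other N2 libraries), 473 of cox-5B (266.2 to 287.6), 328.6 of mai-1 (17.6 to 23.7) and 214.2 of R04F11.2 (124.5 to 129.4). It had 357.4 CPM of aak-1 (134.9 to 144.7) and 367.4 of flp-11 (205.6 to 231.2). HBR2340 C, the library with the most ant-1.2, had 227.0 CPM of aakg-4 (177.9 to 181.8 in the others) and 23.4 of tin-9.1 (19.5 to 20.1). HBR2340 D had 4.91 CPM of nhr-38, the neighbour of ant-1.3 (0.702 to 1.09 in the others).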

How the results depend on the processing

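For ant-1.1 and ant-1.2 no alternative moved a log2 fold change by more than the SD within strains (0.39 and 0.66). For ant-1.1 that SD includes the high N2 B and is a wide measure. Without N2 B, ant-1.1 went from 0.01 to 0.35 in HBR2340 against N2 and from −0.42 to −0.07 in PHX2193 against N2. The SE of both was 0.26 with all libraries and 0.18 without N2 B. Over all alternatives ant-1.2 ranged from 4.78 to 5.49 in HBR2340 against N2, −5.84 to −4.97 in PHX2193 against HBR2340 and −0.81 to 0.33 in PHX2193 against N2, where the fit of only the 8 libraries compared did not test ant-1.2. For ant-1.1 the ranges were −0.16 to 0.35, −0.60 to −0.31 and −0.59 to −0.07. With 1 library left out, ant-1.1 lay between −0.15 and 0.35 in HBR2340 against N2 and ant-1.2 between −0.81 and 0.21 in PHX2193 against N2. The ant-1.1 values have no fixed sign in HBR2340 against N2, nor those of ant-1.2 in PHX2193 against N2.

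Counts of called pathway genes moved more. In HBR2340 against N2 (6) there were 3 with limma-voom (6.75% of all genes), 2 with only the 8 libraries compared (4.11%), and 2 to 20 with 1 library left out. In PHX2193 against N2 (0) there were 2 with DESeq2 (2.94%) and 0 to 1 with 1 library left out. In PHX2193 against HBR2340 (18) there were 46 with only the 8 libraries compared (34.3%) and 9 to 45 with 1 library left out. The share of all genes called went with 1 library left out from 4.11% to 17.7%, 0.0433% to 1.4% and 13.8% to 32.9%. Fits without N2 B gave the highest counts among those leaving out 1 library, and the cause was not tested. With the replicate block the counts were 5, 0 and 19, and ant-1.2 stood at 5.01 in HBR2340 against N2. Libraries with the same letter deviated together with r from −0.18 to 0.66 (median −0.012), those with other letters from −0.46 to 0.37 (median −0.008). The 0.66 was that of N2 D with PHX2193 D, which did deviate together. Of the 12 libraries, 3 matched best with their own letter, so the letters in general do not pair them. Without these D libraries ant-1.2 stood at 5.47 in HBR2340 against N2. Depth limits ant-1.3 and ant-1.4, and the N2 and PHX2193 levels of ant-1.2, to a few counts a library. Correlations and marker calls without N2 B, and correlations with strain means taken out, were added after seeing the data.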
